A study of Homo sapiens with 12 samples.

Results

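L1MC and L1MD are related groups of long-dead LINE-1 copies, named for their place in the family tree of human LINE-1 elements. They were taken here as every element whose subfamily name starts with L1MC or L1MD and whose reads ran in the direction of the element (sense reads). In all, 53975 such elements had at least 1 sense read, of 1509971 elements read in the 6 transposable element classes counted (LTR, LINE, SINE, DNA, RC and Retroposon). They fell into 17 subfamilies, 11 named L1MC with 40247 elements and 6 named L1MD with 13728 elements. The libraries were PAR-CLIP libraries from A375, an established human melanoma cell line. PAR-CLIP labels RNA in living cells with the uridine analogue 4sU, crosslinks RNA to the proteins that touch it with UV light (316 nm here), and sequences what is pulled down with the protein. Cells were transiently transfected with 1 of 4 V5-tagged constructs, labelled 24 h later and precipitated with an antibody to the V5 tag, with 3 libraries per construct. Clover, a fluorescent protein, was the control, and its libraries measured the background of the pull-down. The others were the full-length ZC3H18 (Z18fl), a truncated ZC3H18 that ends before the region that recruits the RNA degradation machinery (Z18trunc), and this truncated form carrying changed aromatic residues in the zinc finger (Z18truncZnFmut). All proteins were made from transfected plasmids in 1 cell line, and no input RNA was used here, so more of an RNA in the culture and more crosslinking of it cannot be told apart. The files count repeat elements and no genes, so the cell line's own marker genes were not analysed here.

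A LINE-1 element is a retrotransposon: a complete copy is transcribed into an RNA that codes for an RNA-binding protein and a reverse transcriptase, and it spreads by copying that RNA back into DNA. L1MC and L1MD copies belong to old mammalian lineages. Most are short fragments with many mutations and no known capacity to move, and many sit in introns, where they are transcribed as part of the host gene's pre-mRNA. ZC3H18 links capped nuclear RNA to the NEXT and PAXT adaptors, which hand unstable nuclear RNA to the exosome, a complex of ribonucleases. RNA from LINE-1 elements is among the known targets of NEXT. The comparisons below ask which of these old LINE-1 RNAs were recovered with each form of ZC3H18 above the Clover background, and whether the truncation or the zinc finger mutations changed this.

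Some members that carry the comparisons are shown by their middle 300 bases, read from hg38 on the strand of the element, which is the strand of the counted RNA. Capitals mark AATAAA, the main signal for cleavage and polyadenylation, and runs of 5 or more T, which are U in the RNA and the base that 4sU replaces. The first 4 sequences belong to the largest rises in Z18fl against Clover among copies that met the limits on counts, certainty of placement and overlap given with the single copies below, shown so that their base makeup and remaining signals can be read.
L1MC2 in an ADARB2 intron, chr10:1663232-1663531, minus strand: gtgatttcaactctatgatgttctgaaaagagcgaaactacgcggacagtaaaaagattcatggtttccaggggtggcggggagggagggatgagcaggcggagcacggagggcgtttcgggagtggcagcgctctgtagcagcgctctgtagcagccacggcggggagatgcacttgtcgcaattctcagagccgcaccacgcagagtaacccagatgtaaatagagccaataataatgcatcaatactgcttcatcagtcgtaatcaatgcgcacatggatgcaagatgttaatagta
L1MD3 in an ENSG00000234147 intron, chr6:140883191-140883490, minus strand: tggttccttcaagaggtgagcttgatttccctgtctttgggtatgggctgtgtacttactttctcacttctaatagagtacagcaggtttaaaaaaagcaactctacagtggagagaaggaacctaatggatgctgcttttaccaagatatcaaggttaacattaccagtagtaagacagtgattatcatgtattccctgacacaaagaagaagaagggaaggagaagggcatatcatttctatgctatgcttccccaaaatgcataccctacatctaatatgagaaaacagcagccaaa
L1MC1 in an ENSG00000254526 intron, chr11:29249541-29249840, plus strand: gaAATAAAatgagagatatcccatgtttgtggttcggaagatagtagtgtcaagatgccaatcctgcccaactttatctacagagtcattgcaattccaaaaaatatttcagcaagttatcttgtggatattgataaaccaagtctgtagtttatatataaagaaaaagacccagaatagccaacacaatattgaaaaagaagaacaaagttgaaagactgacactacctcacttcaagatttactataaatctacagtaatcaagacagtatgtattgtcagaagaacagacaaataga
L1MC1 in an ENSG00000254526 intron, chr11:29246143-29246442, plus strand: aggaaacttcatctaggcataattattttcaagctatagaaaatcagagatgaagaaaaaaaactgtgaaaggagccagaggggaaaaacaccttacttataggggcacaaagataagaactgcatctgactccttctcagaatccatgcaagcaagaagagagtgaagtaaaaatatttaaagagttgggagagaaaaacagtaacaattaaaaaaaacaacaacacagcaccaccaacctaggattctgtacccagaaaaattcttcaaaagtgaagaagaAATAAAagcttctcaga
The next pair belongs to the largest falls in Z18fl against Clover under the same limits.
L1MC4a antisense to MAD1L1, chr7:1968700-1968999, plus strand: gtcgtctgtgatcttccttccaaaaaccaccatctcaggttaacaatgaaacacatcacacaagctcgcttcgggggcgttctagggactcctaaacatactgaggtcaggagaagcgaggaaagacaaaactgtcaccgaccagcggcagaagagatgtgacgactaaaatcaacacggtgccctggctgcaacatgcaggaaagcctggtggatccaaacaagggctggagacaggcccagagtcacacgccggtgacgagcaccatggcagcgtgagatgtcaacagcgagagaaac
L1MC4 between genes, chr3:140880088-140880387, plus strand: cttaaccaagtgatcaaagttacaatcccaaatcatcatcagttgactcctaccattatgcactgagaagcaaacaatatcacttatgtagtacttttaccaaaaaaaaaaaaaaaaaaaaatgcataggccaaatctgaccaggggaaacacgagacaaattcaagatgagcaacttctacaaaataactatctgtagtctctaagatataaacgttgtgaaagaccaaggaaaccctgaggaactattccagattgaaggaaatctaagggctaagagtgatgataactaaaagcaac
The last pair belongs to the largest rises in Z18trunc against Clover, again under these limits.
L1MD2 between genes, chr5:25455638-25455937, plus strand: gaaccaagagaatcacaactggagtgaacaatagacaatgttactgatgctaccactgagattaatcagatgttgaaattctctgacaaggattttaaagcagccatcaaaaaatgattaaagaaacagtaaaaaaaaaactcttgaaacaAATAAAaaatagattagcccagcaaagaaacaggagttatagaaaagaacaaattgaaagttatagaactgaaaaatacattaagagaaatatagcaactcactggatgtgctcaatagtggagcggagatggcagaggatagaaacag
L1MC4 in a CERT1 intron, chr5:75491182-75491481, minus strand: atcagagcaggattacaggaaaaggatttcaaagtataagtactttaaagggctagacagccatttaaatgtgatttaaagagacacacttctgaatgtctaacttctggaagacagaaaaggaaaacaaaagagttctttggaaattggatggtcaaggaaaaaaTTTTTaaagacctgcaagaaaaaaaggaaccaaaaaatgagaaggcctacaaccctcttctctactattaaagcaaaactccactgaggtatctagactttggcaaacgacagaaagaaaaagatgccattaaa
The copy antisense to MAD1L1 and the ADARB2 copy were 47% and 49% A and T in these windows, against 60% to 67% in the other 6 windows. AATAAA stood in 3 of the 8 windows, and 1 of the 8 held a run of 5 or more T.

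Libraries held 16683132 to 25686948 aligned fragments. All Clover libraries were shallower, with 16683132 to 17673644 fragments against 21285347 to 25686948 in the ZC3H18 libraries. Raw counts and numbers of elements read are therefore not at equal depth. A level below is the number of counts per 1000000 of these fragments (CPM), and intervals on shares of counts are Wilson intervals at 95% that cover counting error only. The labels number the 3 libraries of a construct but do not say whether they came from separate cultures, so p-values measure the spread between these libraries, which may be technical. The library Z18truncZnFmut replicate 3 stood apart from the other 11. It had reads on 35152 member elements, against 3522 to 12765 in the others, and 22649 members were read in it alone. Its sense share of member reads was 52.0%, against 54.5% to 63.8% elsewhere, and members made up 3.27% of its element counts (interval 3.25% to 3.29%), against 1.83% to 2.53%. Results on Z18truncZnFmut are therefore given with and without it, and the part that this library's makeup had in them was not tested.

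Members were spread thinly. Of the 53975 elements, 35657 had at most 2 counts over all 12 libraries together, and 81 had at least 10 in each library. Reads that mapped to 1 place gave 65.6% to 77.1% of the member counts, and the rest were shared out among copies by the authors' program. The summed level of all members was 842, 708 and 709 CPM in Clover (753 ± 76.9, SD, n = 3). It was 1179, 1166 and 1302 CPM in Z18fl (1216 ± 74.9, SD, n = 3) and 1237, 1318 and 1474 CPM in Z18trunc (1343 ± 120, SD, n = 3). Every Z18fl and Z18trunc library lay above every Clover library, by 1.61-fold and 1.78-fold in the means. The Z18truncZnFmut libraries had 1092, 1081 and 2947 CPM, all above Clover, and the fold of the means was 2.27 with replicate 3 and 1.44 without it. Z18trunc and Z18fl overlapped. Members also took a larger share of all element counts with ZC3H18, with 1.83% to 2.01% in Clover, 2.28% to 2.36% in Z18fl and 2.23% to 2.53% in Z18trunc. These are sums over members, and no test was made on them.

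The higher sums lay in copies outside exons. Each copy was placed against GENCODE genes on its own strand as exonic (at least 50% of its length in an exon), intronic, antisense to a gene, or intergenic. Copies in exons gave 197 to 232 CPM in each of the 12 libraries, and no construct separated from Clover, with folds of 0.934 in Z18fl, 1.02 in Z18trunc and 0.983 in Z18truncZnFmut. Copies in introns gave 352, 298 and 297 CPM in Clover, 680, 649 and 751 CPM in Z18fl, and 688, 745 and 724 CPM in Z18trunc. All 6 of the Z18fl and Z18trunc libraries were above all Clover libraries, 2.20-fold and 2.28-fold in the means. In Z18truncZnFmut the intronic copies gave 559, 565 and 938 CPM, again above Clover in all 3 libraries, with 1.78-fold for the first 2 libraries and 2.18-fold for all 3. The first 2 of these libraries were below every Z18trunc library, 0.781-fold in the means, while replicate 3 was above them. Intergenic copies had 125 ± 21.1 CPM in Clover and 199 ± 12.8 CPM in Z18fl (SD, n = 3 each), and no ZC3H18 library overlapped Clover. The Z18trunc mean was 1.96-fold and the Z18fl mean 1.59-fold that of Clover, while Z18truncZnFmut gave 3.74-fold with replicate 3 and 1.47-fold without it. Copies antisense to a gene had 93.1 ± 18.5 CPM in Clover, 119 ± 5.50 CPM in Z18fl, overlapping Clover, and 155 ± 56.5 CPM in Z18trunc (SD, n = 3 each), above Clover in all 3 libraries. In Z18truncZnFmut the antisense fold was 3.61, and 1.33 without replicate 3. Set against all element counts in place of aligned fragments, the intronic sum was higher by 0.74 and 0.67 on the log2 scale in Z18fl and Z18trunc, and the exonic sum was lower, at -0.50 and -0.49. In the same libraries, the exonic share of member counts was 27.1% to 32.1% in Clover, 16.5% to 17.4% in Z18fl and 14.4% to 18.4% in Z18trunc.

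**Figure D1:**
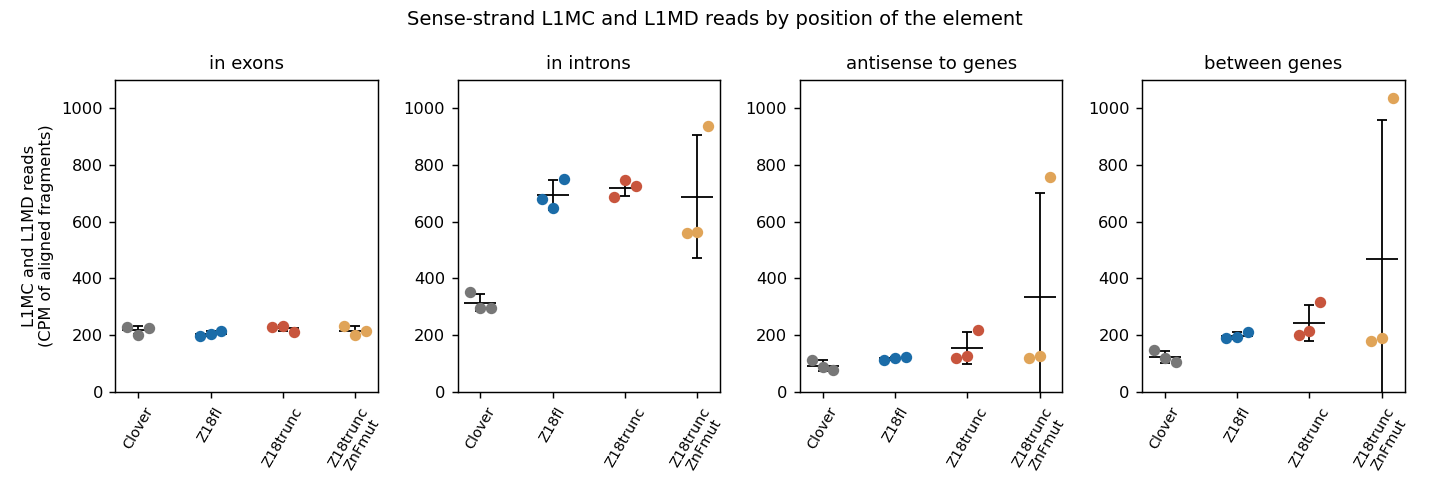
Summed level of L1MC and L1MD elements (CPM, y axis) by gene context and construct, with a point for each library and the mean with its SD (n = 3). Exonic copies stay between 197 and 232 CPM in all 12 libraries, while intronic copies of every ZC3H18 library lie above the 297 to 352 CPM of Clover, and the high Z18truncZnFmut points in the antisense and intergenic panels are replicate 3.

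Summing counts per subfamily and testing all subfamilies together gave rises in 9 of the 17 in Z18fl against Clover and falls in 0, by edgeR's quasi-likelihood test at an adjusted p under 0.05. Of all 915 subfamilies tested, 20.1% rose and 20.1% fell. The largest rises were in L1MD1, L1MCb and L1MDa. L1MD1 went from 26.6, 20.1 and 19.5 CPM in Clover to 49.1, 47.2 and 57.2 CPM in Z18fl, a log2 fold change of 0.75 ± 0.09 (SE, adjusted p = 6.81e-06). L1MCb, a small subfamily of 849 read elements, went from 7.61, 6.49 and 6.56 CPM to 16.3, 14.4 and 15.3 CPM, a log2 fold change of 0.69 ± 0.10 (adjusted p = 5.00e-05). In both, all Z18fl libraries were more than any Clover library. L1MDa, the most intronic of the 17 with 72.3% of its counts in introns, rose by 0.59 ± 0.08 on the log2 scale. L1MC3, L1MCa, L1MCc, L1MD3 and L1MC2 rose by 0.40 to 0.54. L1MC rose by 0.28 (adjusted p = 0.049), and this call was lost on leaving out any library other than Clover 1, with adjusted p of 0.0547 to 0.209.

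Z18trunc gave much the same subfamilies. Rises were called in 10 of the 17 and falls in 0, against 14.5% and 11.9% of the 925 subfamilies tested. L1MD1 had 58.7, 62.2 and 70.1 CPM in Z18trunc, 1.04 ± 0.10 above Clover on the log2 scale. L1MCb followed with 0.87 ± 0.12, L1MDa with 0.85 ± 0.10, L1MCc with 0.78 ± 0.11 and L1MCa with 0.67 ± 0.10. L1MC1 was called in Z18trunc (0.43 ± 0.10, adjusted p = 0.0035) and had 0.18 ± 0.08 in Z18fl (adjusted p = 0.10). The calls of L1MC1 and L1MD3 in Z18trunc were lost without Clover replicate 2 (adjusted p = 0.0502 and 0.0626), and that of L1MC on leaving out Z18trunc replicate 2 or either of Clover replicates 2 and 3. Both comparisons use the same 3 Clover libraries. Tested against each other, Z18trunc and Z18fl differed in none of the 17 subfamilies by edgeR (1.48% of 948 subfamilies were higher and 2.43% lower). At an unadjusted p under 0.05, 4 of the 17 were higher in Z18trunc and 0 lower, against 96 and 85 of the 948. DESeq2 called 1 higher, against 37 of the 948. The largest difference was 0.26 ± 0.08 for L1MD1 (adjusted p = 0.073). Without Z18trunc replicate 3, 4 were called higher and 1 lower, against 88 and 46 of 957 subfamilies.

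In 7 subfamilies neither construct was called against Clover. These were L1MC4, L1MC4a, L1MC5, L1MC5a, L1MD, L1MD2 and L1MDb. L1MC4, with 7896 read elements the most numerous, had 132, 122 and 117 CPM in Clover and 157, 156 and 168 CPM in Z18fl, so its raw level was higher in each Z18fl library. After TMM scaling, which sets the bulk of elements as the reference, its log2 fold change was -0.10 ± 0.06, while with library sizes from aligned fragments it was 0.37. That other scaling moves the median of all subfamilies from -0.01 to 0.45 in Z18fl, and all 17 subfamilies were then called higher in Z18fl and in Z18trunc. So were 497 of all 919 subfamilies tested in Z18fl and 417 of 924 in Z18trunc. The log2 fold changes given here are thus changes relative to the bulk of transposable elements in the same libraries.

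Fewer subfamilies separated for Z18truncZnFmut. L1MD1 alone was called higher than Clover, with 44.7, 45.5 and 157 CPM and a log2 fold change of 0.81 ± 0.16 (adjusted p = 0.047), and 0 were called lower, against 1.30% and 0.00% of the 921 subfamilies tested. At an unadjusted p under 0.05, 7 were higher and 0 lower, against 95 and 76 of the 921. The widest spread was with replicate 3, and without it 7 of the 17 were called higher and 0 lower, against 98 and 51 of 895 subfamilies. The L1MD1 call was lost on leaving out any of the other 5 libraries. Against Z18trunc, 0 of the 17 were called in either direction by edgeR or DESeq2 (0.00% of 957 either way). L1MDa had the lowest value there, with -0.37 ± 0.16 (adjusted p = 0.82), and L1MCc had -0.33 ± 0.15.

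**Figure D2:**
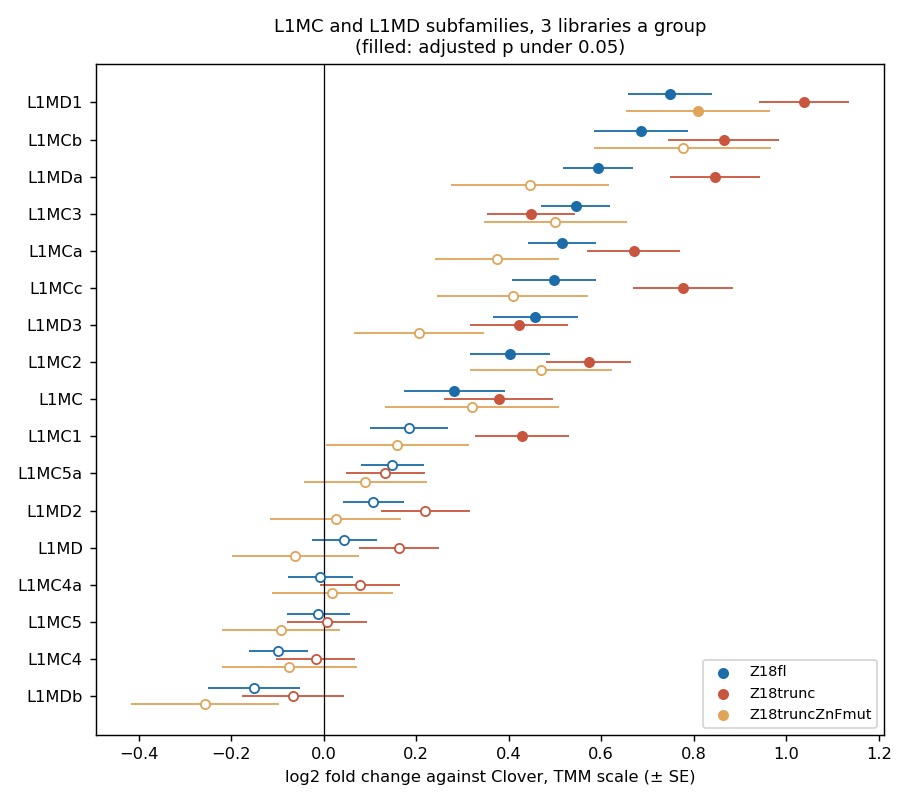
Log2 fold change of each of the 17 subfamilies (summed sense counts, edgeR with TMM) for Z18fl, Z18trunc and Z18truncZnFmut against Clover, with bars of 1 SE; filled points had an adjusted p under 0.05. L1MD1 lies furthest to the right in all 3 comparisons (0.75, 1.04 and 0.81), and L1MC4, L1MC5 and L1MDb lie near or left of 0.

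Where the counts of a subfamily lay followed its value. Across the 17 subfamilies, the log2 fold change in Z18fl had a Pearson correlation of -0.70 with the share of counts in exons and 0.61 with the median length of the copies (Spearman -0.75 and 0.58), given as a description since the subfamilies share libraries. The share in exons was taken over the counts of all 12 libraries, Z18fl included, so it is not independent of the change. Some exonic shares come from a single abundant mRNA. A copy in an exon of CLTC, the clathrin heavy chain gene, gave 49.7% of all L1MDb counts, a copy in an exon of ACTN4, an actin-bundling protein gene, gave 20.5% of L1MD counts, and a copy in an exon of COA7, a gene for assembly of cytochrome c oxidase, gave 15.1% of L1MC1 counts. The subfamilies were therefore also summed over intronic and exonic copies apart, a split chosen after the data had been seen. Each kind of sum was scaled by TMM in its own fit. Intronic values are thus relative to the bulk of intronic elements, and exonic values to the bulk of exonic elements. With all elements in the same fit of single copies, the Z18fl median was 0.64 over intronic and -0.62 over exonic elements.

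Intronic copies rose in most subfamilies. Summed over introns, 11 of the 17 were called higher in Z18fl and 0 lower (18.6% and 15.6% of 763 subfamilies), and 12 were called higher in Z18trunc and 0 lower (16.1% and 9.06% of 762). L1MCb rose by 1.01 ± 0.15 in Z18fl and 1.22 ± 0.15 in Z18trunc on the log2 scale, and L1MD1 by 0.86 ± 0.10 and 1.21 ± 0.12. L1MC1, L1MD and L1MD2, which were not called as whole subfamilies in Z18fl, rose by 0.54 ± 0.09, 0.43 ± 0.09 and 0.46 ± 0.08 there. L1MC4 was called in Z18trunc with 0.25 ± 0.08 (adjusted p = 0.033). In Z18truncZnFmut the intronic sums of L1MC1, L1MC2, L1MCb and L1MD1 were called higher, by 0.49 to 0.91, and 0 were called lower (6.79% and 2.09% of 766). L1MDa was higher in Z18trunc than in Z18fl by 0.30 ± 0.07 (adjusted p = 0.023), the 1 intronic sum called between them, where 4.88% of 819 subfamilies were higher and 2.81% lower.

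Exonic copies went both ways. Of 16 subfamilies with enough exonic counts, 3 rose in Z18fl (L1MCa, L1MD1 and L1MDa) and 4 fell (L1MC1 by 0.66, L1MC4 by 0.43, L1MD by 0.57 and L1MD2 by 0.36 on the log2 scale), against 21.2% and 18.5% of 561 subfamilies. In Z18trunc, 4 rose (L1MCa, L1MCc, L1MD1 and L1MDa) and 2 fell (L1MC4 and L1MD2), against 12% and 10.9%. In Z18truncZnFmut, L1MCa and L1MDa rose and 0 fell, against 5.38% and 2.41%. L1MC1 in Z18fl had 0.54 over its intronic copies, relative to intronic elements. Over its exonic copies, of which the COA7 copy gave most counts, it had -0.66, relative to exonic elements. These values are on different scales. Between Z18trunc and Z18fl, the exonic sums of L1MC1, L1MC4, L1MC4a and L1MD were higher in Z18trunc, by 0.24 to 0.49, and 0 were lower, against 11.8% and 6.31% of 586 subfamilies.

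**Figure D3:**
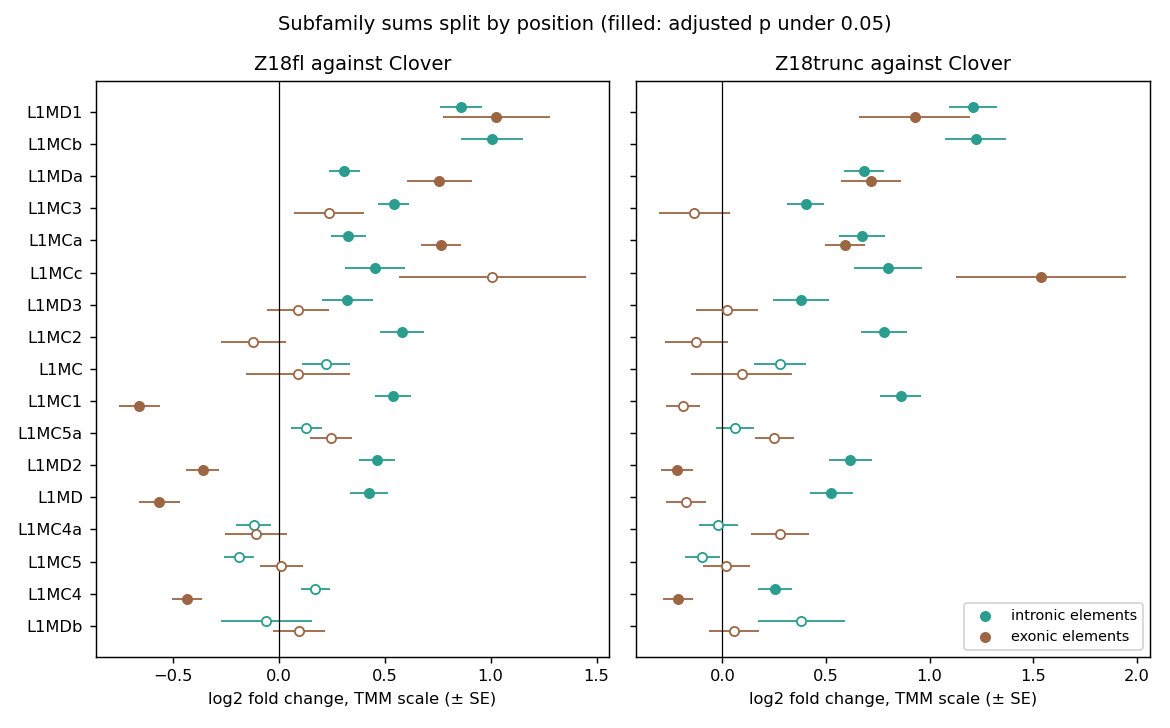
Log2 fold change of each subfamily summed over intronic copies and over exonic copies, for Z18fl and Z18trunc against Clover (edgeR with TMM, bars of 1 SE, filled where the adjusted p was under 0.05). Intronic and exonic sums were scaled in separate fits, so their positions are not on the same scale. Intronic points lie right of 0 for most subfamilies, up to 1.01 in Z18fl and 1.22 in Z18trunc for L1MCb, while exonic points lie on both sides, with L1MC1 at -0.66 and L1MD1 at 1.03 in Z18fl.

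Single copies could be tested where they had enough reads. In Z18fl against Clover, 244 members were tested, and 84 (34.4%) were called higher and 38 (15.6%) lower, while 28.3% of all 12098 elements tested were higher and 24.6% lower. The median log2 fold change was 0.17 over the tested members and 0.01 over all elements. In Z18trunc against Clover, 87 of 276 members were higher (31.5%) and 34 lower (12.3%), against 22.5% and 13.4% of 13204 elements. In Z18truncZnFmut against Clover, 14 of 181 were higher (7.73%) and 10 lower (5.52%), against 12.3% and 4.83% of 10152 elements. Its rises numbered 8 and 6 without Z18truncZnFmut replicates 1 and 2 and 24 to 30 without a Clover library, and its falls 4 or 5 without a Z18truncZnFmut library or Clover replicate 1 and 6 without Clover replicate 3. Of the 244 and the 276, 108 and 140 had a mean under 10 counts in Clover and entered the test mainly through the other group, where they had to be high, and these held 70 of the 84 and 79 of the 87 rises. Among members with a mean of at least 10 counts in both groups, 14 of 130 were higher and 31 lower in Z18fl, 8 of 133 higher and 27 lower in Z18trunc, and 2 of 134 higher and 10 lower in Z18truncZnFmut. The counts of rises over all tested members are therefore a description, and nothing is read from them against the background. With library sizes from aligned fragments, 120 of 266 members were higher and 25 lower in Z18fl, and 133 and 8 of 282 in Z18trunc. The medians of all elements were then 0.48 and 0.39, with 4934 of 12886 higher and 1699 lower in Z18fl. In Z18trunc 4280 of 13373 elements were higher and 494 lower with these sizes. Leaving out a Clover library raised the number tested and the rises, to 134 to 144 in Z18fl and 152 to 159 in Z18trunc, while Z18trunc had 53 and 50 rises without its replicates 1 and 2, and 16, 19 and 21 falls without its replicates 1, 2 and 3. Rises and falls were shared between the constructs to a degree that cannot be read further, since both use the same Clover libraries. Of the rises, 48 were called in both (57.1% of those in Z18fl, 55.2% of those in Z18trunc), and of the falls 27 (71.1% and 79.4%).

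Single copies were also counted by gene context. In introns, 59 of 127 tested members rose in Z18fl and 9 fell, with a median log2 fold change of 0.76, and in Z18trunc 70 of 145 rose and 7 fell, with a median of 0.97. In exons, 12 of 71 rose and 22 fell in Z18fl (median -0.36), and 8 of 76 rose and 22 fell in Z18trunc (median -0.39). In Z18truncZnFmut, 13 of 82 intronic members rose and 3 fell, and 0 of 59 exonic members rose while 7 fell. The intronic rises were 48.3% in Z18trunc and 15.9% in Z18truncZnFmut. They stood beside 35.4% and 21.3% of all intronic elements tested, and 64.5% and 48.0% of intronic LINE elements. The exonic falls were 28.9% and 11.9%, beside 26.6% and 10.7% of all exonic elements and 21.2% and 10.0% of exonic LINE elements. With a mean of at least 10 counts in both groups, 8 of 54 intronic members rose and 7 fell in Z18fl (median -0.07), and 4 of 53 exonic members rose and 19 fell (median -0.55). In Z18trunc these counts were 6 and 5 of 54 in introns (median -0.04) and 2 and 18 of 54 in exons (median -0.48). With a mean of at least 20 counts over the 6 libraries in its place, 17 of 49 intronic members rose and 6 fell in Z18fl, against 4 and 19 of 41 exonic members, and in Z18trunc 22 and 5 of 58 against 3 and 17 of 42. The number of intronic rises thus depended on how low counts were treated, while more exonic members fell than rose in each of these counts. Both limits were set after the data had been seen. Over all elements of the 6 classes tested, 41.8% of intronic elements rose in Z18fl and 42.4% of exonic elements fell. Intronic members of L1MC and L1MD had 46.5% risen and 7.09% fallen, and exonic members 16.9% risen and 31.0% fallen. Among all LINE elements tested in Z18fl, 62.0% of intronic copies rose and 5.64% fell (median 1.40). Exonic LINE copies had 15.4% risen and 30.2% fallen. The shares of members risen include copies with few Clover reads that entered the test mainly through Z18fl. They are therefore a description, and nothing is read from them against all LINE elements.

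**Figure D4:**
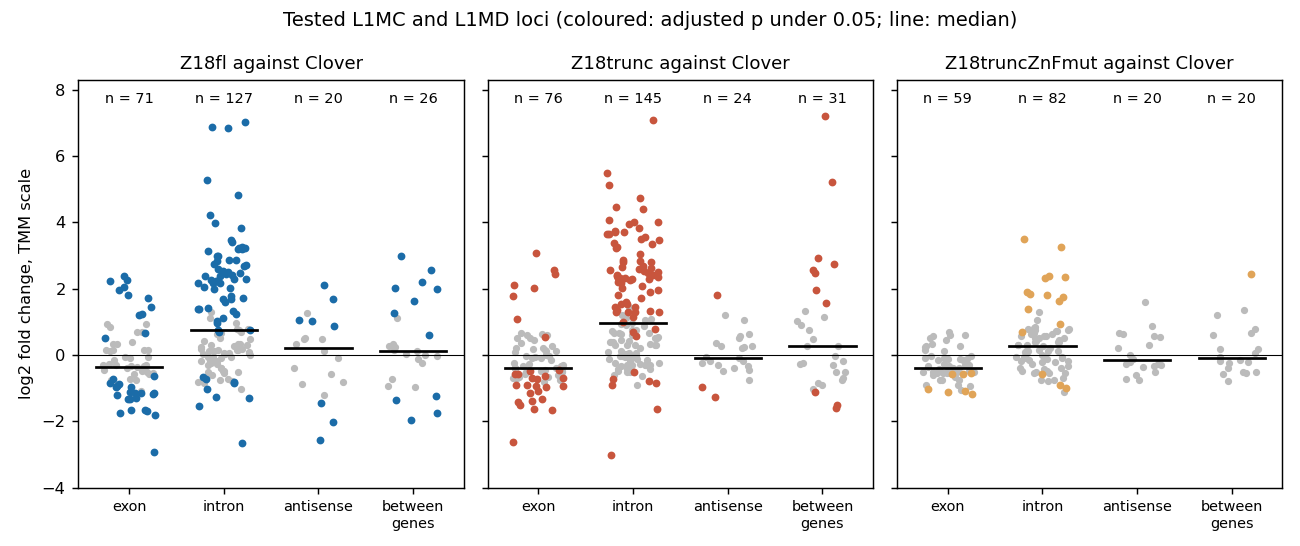
Log2 fold change against Clover of every tested L1MC and L1MD copy by gene context, for each construct (coloured where the adjusted p was under 0.05, the line is the median). The intronic medians are 0.76, 0.97 and 0.27 for Z18fl, Z18trunc and Z18truncZnFmut, and the exonic medians -0.36, -0.39 and -0.40, and many of the high intronic points are copies with a mean under 10 counts in Clover.

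Set beside the neighbouring groups of old LINE-1 elements, L1MC and L1MD had modest values. The median over tested copies was 1.61 for L1MA, a younger group, in Z18fl and 2.21 in Z18trunc, with 66.4% and 73.7% of copies called higher. L1MB had medians of 0.50 and 0.28, and L1ME, an older group, 0.44 and 0.38, near the 0.17 and 0.29 of L1MC and L1MD. All LINE elements tested had medians of 0.84 and 1.02, with 47.9% and 49.4% called higher. Within introns, the Z18fl medians were 1.85 for L1MA, 1.35 for L1MB, 0.98 for L1ME and 0.76 for L1MC and L1MD. These are descriptions over the copies that could be tested, and the difference between groups was not tested.

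The rises came from many host genes. In Z18fl the 84 risen copies included copies in 57 genes, of which 11 held more than 1, and in Z18trunc the 87 included copies in 60 genes, of which 10 held more than 1. Of the 84 and the 87, 70 and 79 had a mean under 10 counts in Clover, so the counts and fold changes of rises are a description. MOB2, which codes for a binding partner of NDR kinases, held 3 risen copies in Z18fl with log2 fold changes of 2.69 to 3.82. GAK, which codes for a kinase of clathrin-coated vesicles, held 3 in both comparisons. EPIC1, a long noncoding RNA gene, held 3 in Z18fl (2.0 to 2.74) and 5 in Z18trunc (2.31 to 2.69). FBXW11, which codes for a substrate-binding subunit of a ubiquitin ligase, and IARS1, which codes for a cytosolic isoleucyl-tRNA synthetase, each held 4 in Z18trunc. Copies in 1 gene share its transcript and are not separate observations. ZNF197, a zinc finger gene, was the one named gene with several fallen copies in both, 3 in Z18fl and 2 in Z18trunc.

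Copies in an intron were also set beside other elements in introns of the same gene. In Z18fl, 70 intronic members had other LINE copies tested in the same gene, and 56 had the same sign as the median of those copies. The median difference between a member and its neighbours was 0.02, with medians of 0.78 for members and 1.09 for the other LINE copies. In Z18trunc, 64 of 82 had the same sign, and the median difference was 0.02. Against SINE copies of the same gene, 57 members in Z18fl had a median of 0.15 and their neighbours 0.01, with a median difference of 0.17.

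Copies were also split by length, as a description. In Z18fl, 56 of 127 tested members over 500 bases rose and 14 fell (median 0.51), while of 30 members under 200 bases 2 rose and 14 fell (median -0.81). Z18trunc had 75 risen and 12 fallen of 160 over 500 bases, and 1 risen and 12 fallen of 33 under 200 bases. Within introns the Z18fl medians were 1.27 over 500 bases (80 copies) and 0.20 from 200 to 500 bases (41 copies). Over all intronic elements tested, the medians were 1.32 over 500 bases and 0.08 from 200 to 500 bases. With a mean of at least 10 counts in both groups, 7 of 61 members over 500 bases rose in Z18fl and 12 fell (median -0.10), and 0 of 20 under 200 bases rose and 11 fell (median -1.02), so the rises of long copies were mostly of members with few Clover reads. By content of A and T, the medians in Z18fl were 0.49, 0.01 and 0.17 for members under 55%, from 55% to 65%, and over 65%, and in Z18trunc they were 0.29, 0.13 and 0.90. Within introns, the medians of members in the same order were 0.78, 0.46 and 0.68 in Z18fl and 0.52, 1.31 and 1.45 in Z18trunc, and those of all elements 0.23, 1.37 and 1.89 in Z18fl and 0.03, 1.59 and 2.44 in Z18trunc.

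The motifs AATAAA and TTTTT were counted on the strand of the element in the middle 100 bases of each copy. AATAAA stood in 8.33% of the 84 copies risen in Z18fl, 10.5% of the 38 fallen, 10.2% of all tested members and 8.41% of all elements tested. TTTTT stood in 10.7%, 2.63%, 8.20% and 5.11% of the same sets. In Z18trunc the shares for AATAAA were 18.4% of risen, 5.88% of fallen and 12.3% of tested members, and those for TTTTT were 11.5%, 0.00% and 8.70%. Over all 53975 members read, 18.9% held AATAAA and 13.8% TTTTT, and their median content of A and T was 66.2%, against 60.5% over the members tested in Z18fl. These differences were not tested.

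A rule of at least 90% mean certainty of placement (the score of the files) with non-overlapping libraries and a mean of at least 20 counts in the higher group left at most 1 copy in each direction, so copies with a score of at least 70% are named here, a limit set after the data had been seen. Most copies named for a rise had almost no Clover reads and entered the test through the ZC3H18 libraries, so their counts and ratios are given as a description, without a p. Intervals on these ratios cover counting error only, although libraries of a construct differed by more than that. The copies were chosen for their rise, so no interval serves as a test of it. With these limits, the largest rise in Z18fl was the L1MC2 copy in an intron of ADARB2, which codes for a brain member of the RNA-editing adenosine deaminase family (chr10:1663144-1663620, minus strand). It had 0, 0 and 0 counts in Clover and 19, 17 and 26 in Z18fl, at least 14.8-fold higher against a floor of 3 counts over the group. Z18trunc had 10, 6 and 11 counts and Z18truncZnFmut 6, 4 and 4, so every ZC3H18 library was above every Clover library, and Z18fl was above the rest. The L1MD3 copy in an intron of the noncoding RNA gene ENSG00000234147 (chr6:140882802-140883880) had 1, 0 and 0 counts in Clover and 26, 27 and 35 in Z18fl, a ratio of summed CPM of 63.1 with an exact counting interval of 11 to 2520. In Z18trunc it had 19, 29 and 30 counts. The libraries of both constructs overlapped, with a log2 difference of -0.24 ± 0.28 of Z18trunc from Z18fl.

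The 2 L1MC1 copies in an intron of the noncoding RNA gene ENSG00000254526 (chr11:29248042-29251340 and chr11:29244809-29247776, plus strand) lie next to each other. The first had 0, 0 and 1 counts in Clover and 16, 17 and 32 in Z18fl, a ratio of 46.6 (8.07 to 1868). The other had 1, 1 and 0 counts against 22, 18 and 36, a ratio of 27.2 (7.29 to 229). The pair share a transcript, and both were high in the same libraries. An L1MCc copy in an intron of RPTOR, which codes for the raptor subunit of the growth-controlling kinase complex mTORC1 (chr17:80932356-80933802), had 3, 0 and 0 counts in Clover, 23, 29 and 40 in Z18fl and 40, 56 and 32 in Z18trunc. Its ratios were 22 (7.29 to 109) and 30.6 (10.3 to 151). The L1MDa copy of MOB2 at chr11:1474144-1475313 had 1, 0 and 3 counts in Clover and 30, 47 and 29 in Z18fl.

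Under the same limits, the largest rises in Z18trunc were copies with no Clover read. An intergenic L1MD2 copy (chr5:25455358-25456217) had 0, 0 and 0 counts in Clover and 23, 24 and 24 in Z18trunc, at least 17.0-fold higher, and 13, 12 and 14 in Z18fl. The L1MC4 copy in an intron of CERT1, which codes for a ceramide transfer protein (chr5:75490798-75491865), had 0, 0 and 0 against 21, 25 and 19 counts, at least 15.6-fold higher. In both, the Z18trunc libraries were close together and above every library of the other constructs. An L1MC1 copy in an intron of JMJD1C, a gene of the jumonji histone demethylase family (chr10:63507664-63510007), had 0, 1 and 0 counts in Clover and 37, 35 and 28 in Z18trunc, a ratio of 71.8 (12.6 to 2865). An intergenic L1MD1 copy (chr18:51087695-51090634) had 0, 0 and 1 against 36, 26 and 22 counts, a ratio of 60.3 (10.5 to 2411). The L1MC1 copy in FBXW11 (chr5:171880997-171882318) met the limit of 90%, with 1, 1 and 2 counts in Clover and 30, 21 and 19 in Z18trunc.

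The copies called for Z18truncZnFmut were also called for Z18trunc, all 14 risen and all 10 fallen, with the Clover libraries shared. The largest rise was the L1MDa copy in an intron of ACBD6, an acyl-CoA binding protein gene (chr1:180386319-180387894). It had 1, 0 and 5 counts in Clover and 45, 27 and 38 in Z18truncZnFmut. Z18fl had 35, 24 and 29 and Z18trunc 45, 64 and 39 counts, so all 9 ZC3H18 libraries were well above Clover. The L1MD1 copy in an intron of MTMR1, a phosphoinositide phosphatase gene (chrX:150703994-150705789), had 3, 2 and 0 counts in Clover and 24, 26 and 28 in Z18truncZnFmut. An intergenic L1MC1 copy (chr4:23337034-23339920) had 6, 2 and 6 against 48, 31 and 43. A second L1MDa copy of MOB2 (chr11:1476306-1477405) had 5, 5 and 2 against 37, 28 and 31. The L1MDa copy in an intron of TCF12, a helix-loop-helix transcription factor gene (chr15:56992920-56995002), had 5, 5 and 3 against 21, 19 and 34. That in an intron of PRKAR1B, a regulatory subunit of protein kinase A (chr7:720358-721364), had 5, 2 and 7 against 30, 22 and 26. All these copies had a mean under 10 counts in Clover, so the counts are a description. Of these, TCF12 lost its call without Z18truncZnFmut replicate 3 or Clover replicate 3, and PRKAR1B without Clover replicate 2.

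Under the same limits, most of the largest falls were in copies outside introns. The L1MC4a copy antisense to MAD1L1, a spindle checkpoint gene (chr7:1968650-1969050, plus strand), had 44, 46 and 65 counts in Clover and 13, 14 and 20 in Z18fl, and fell by 2.56 ± 0.28 on the log2 scale (adjusted p = 9.93e-07). An intergenic L1MC4 copy (chr3:140879838-140880637) had 33, 23 and 36 against 8, 13 and 22 counts and fell by 1.94 ± 0.34. An L1MC4 copy in an exon of NBPF6 (chr1:108470992-108471164) fell in all 3 comparisons, by 1.82 ± 0.34, 1.67 ± 0.33 and 1.17 ± 0.34. NBPF6 belongs to a family of near-identical genes, so the placement of its reads is uncertain, and its Z18truncZnFmut call was lost with uniquely mapping reads (adjusted p = 0.0601) and without Z18truncZnFmut replicates 1 or 2 or Clover replicate 1. An intergenic L1MC4 copy (chr13:110838215-110838853) fell by 1.75 ± 0.35 in Z18fl and 1.49 ± 0.34 in Z18trunc. An L1MD2 copy in an exon of RPS23, a small ribosomal subunit gene (chr5:82273862-82274240), had 221, 154 and 192 counts in Clover, 120, 95 and 109 in Z18fl and 169, 193 and 114 in Z18trunc, and fell by 1.65 ± 0.17 in Z18fl and 1.08 ± 0.17 in Z18trunc. With no filter on low counts, the Z18trunc calls of both copies were lost (adjusted p = 0.0898 and 0.101). In Z18truncZnFmut, falls were also called for an L1MD3 copy in an exon of ENSG00000270299 (chr20:646629-646931, 1.13 ± 0.30) and an L1MC4a copy in an intron of MAPKBP1, a scaffold gene of JNK signalling (chr15:41815897-41816472, 0.90 ± 0.18). The first of these was lost without Z18truncZnFmut replicate 2 or 3 or Clover replicate 3 (adjusted p of 0.0504 to 0.0706).

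Few copies told the truncated from the full-length protein. Of 489 members tested, 8 were higher in Z18trunc and 12 lower by edgeR, against 2.62% and 3.13% of 19413 elements, and DESeq2 called 5 and 5. Both counts fell to between 3 and 5 without replicate 1 or 2 of either construct, and the 12 became 7 without Z18fl replicate 3. Of the 8 and the 12, 6 and 9 had a mean of at least 10 counts in both groups, which the ADRM1, WARS2 and ENSG00000254526 copies below did not. Those copies entered the test mainly through the group where they were high, so their counts are given as a description, without a p. The L1MC4a copy antisense to ADRM1, a ubiquitin receptor of the proteasome (chr20:62304924-62305286, minus strand), had 22, 17 and 26 counts in Z18fl, 3, 5 and 1 in Z18trunc, 2, 5 and 4 in Z18truncZnFmut and 6, 4 and 1 in Clover. It was high in the full-length libraries alone. The call of its rise over Clover was lost without Clover replicate 3. The L1MC5 copy in an intron of SUGP1, a splicing factor gene (chr19:19304127-19304579), had 67, 44 and 63 counts in Z18fl, 27, 23 and 26 in Z18trunc, 22, 15 and 17 in Z18truncZnFmut and 2, 4 and 14 in Clover. Z18fl was again above all others, and Z18trunc was lower by 1.26 ± 0.24 on the log2 scale (adjusted p = 0.0033). The first ENSG00000254526 copy, whose sequence is given above, had 8, 11 and 7 counts in Z18trunc against 16, 17 and 32 in Z18fl. Its call was lost on leaving out any of the 6 libraries.

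Other copies were higher in Z18trunc. The L1MC4a copy antisense to MAD1L1, with 13, 14 and 20 counts in Z18fl, had 55, 49 and 38 in Z18trunc and 77, 45 and 66 in Z18truncZnFmut. Its Z18fl libraries were the lowest of all 12, and Z18trunc was higher by 1.52 ± 0.27 (adjusted p = 0.0018). The L1MC2 copy in an intron of the noncoding RNA gene LINC02154 (chrX:13300593-13303235) had 32, 43 and 41 counts in Z18trunc, 14, 13 and 17 in Z18fl, 29, 25 and 17 in Z18truncZnFmut and 2, 0 and 3 in Clover. It was higher in Z18trunc than in Z18fl by 1.32 ± 0.29 (adjusted p = 0.0089). The L1MC1 copy in an intron of WARS2, the mitochondrial tryptophanyl-tRNA synthetase gene (chr1:119107699-119111923), had 4, 5 and 15 counts in Z18fl and 27, 26 and 21 in Z18trunc. Its call was lost without Z18trunc replicates 1 or 2 or Z18fl replicates 1 or 2.

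A single copy separated Z18truncZnFmut from Z18trunc. Between Z18truncZnFmut and Z18trunc, 1 of 397 members was higher and 0 lower by edgeR and by DESeq2, against 0.368% and 0.351% of 16833 elements, and 18 and 39 at an unadjusted p under 0.05. The 1 call was the exonic RPS23 copy, with 297, 184 and 228 counts in Z18truncZnFmut against 169, 193 and 114 in Z18trunc, a log2 fold change of 0.78 ± 0.18 (adjusted p = 0.039). It was lost on leaving out any library other than Z18truncZnFmut replicate 2 (adjusted p of 0.0569 to 0.219). Intronic members had a median of -0.33 (229 copies) and exonic members 0.04 (86 copies). Over all elements these medians were -0.12 and 0.12, and over all LINE elements -0.30 and 0.09. The intronic medians of L1MA, L1MB and L1ME were -0.45, -0.32 and -0.30, so the value of the members was shared by other intronic LINE copies.

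**Figure D5:**
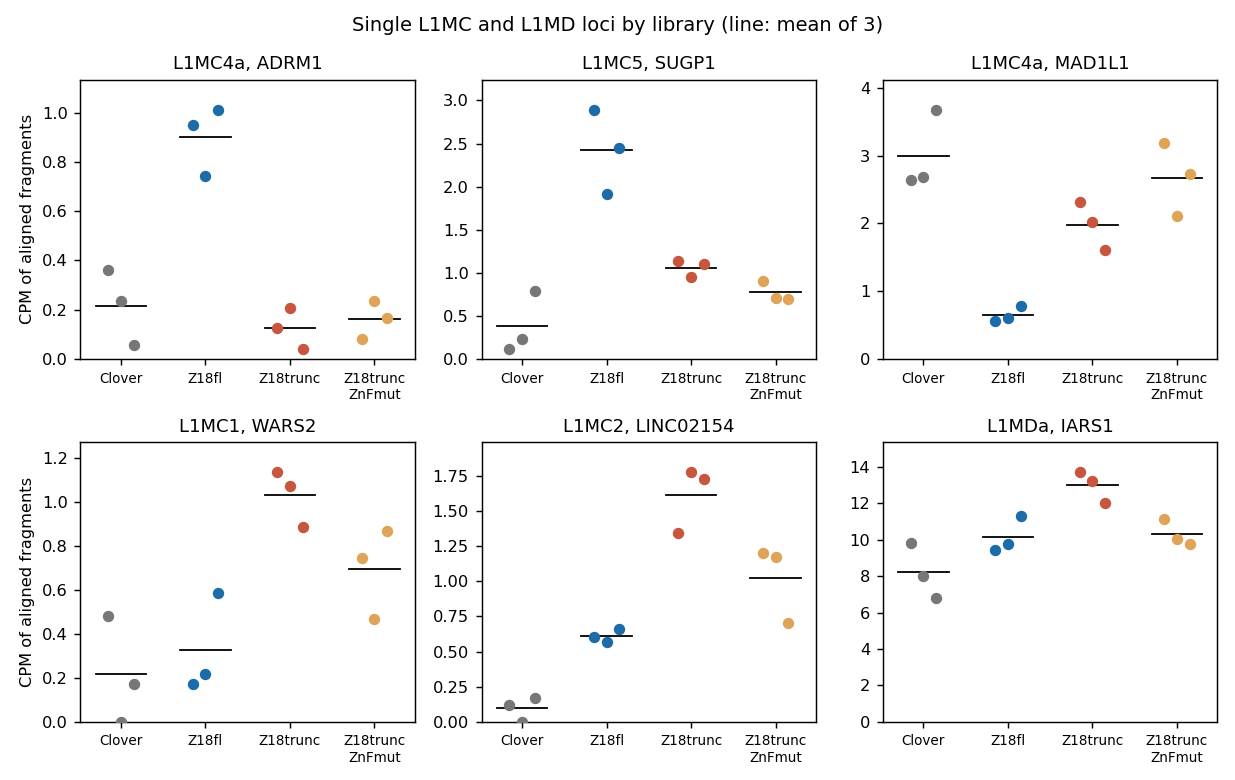
Level of 6 copies in each library (CPM, y axis from 0) by construct, with the mean of 3 libraries as a line. The ADRM1 and SUGP1 copies are highest in Z18fl, the MAD1L1 copy is lowest in Z18fl, the WARS2 and LINC02154 copies are highest in Z18trunc on average, and the IARS1 copy is high in all constructs.

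The copies with the most reads over all libraries were mainly parts of mRNAs. The COA7 copy (L1MC1, chr1:52684455-52685549, in an exon) had 598, 419 and 578 counts in Clover and 319, 357 and 489 in Z18fl, and fell by 1.31 ± 0.14 on the log2 scale (adjusted p = 9.85e-07), by 0.65 ± 0.14 in Z18trunc and by 0.56 ± 0.16 in Z18truncZnFmut. The ACTN4 copy (L1MD, chr19:38730084-38730185, in an exon) had 268, 286 and 351 counts in Clover and 206, 225 and 216 in Z18fl, and fell by 1.32 ± 0.14, 0.69 ± 0.14 and 0.55 ± 0.16. Both had an untranslated part of the exon under them in the annotation, and both were higher in Z18trunc than in Z18fl, by 0.56 ± 0.13 and 0.54 ± 0.15. The IARS1 copy (L1MDa, chr9:92239593-92240234, in an intron) had 164, 137 and 120 counts in Clover, 219, 224 and 290 in Z18fl and 326, 320 and 285 in Z18trunc. Its log2 fold changes were -0.05 ± 0.15 and 0.32 ± 0.15 and did not pass the test, although this was the intronic copy with the most reads. The copy in an exon of the noncoding RNA gene ENSG00000277693 (L1MCa, chr21:10328550-10329040) had 103, 84 and 107 counts in Clover and 224, 244 and 285 in Z18fl, and rose by 0.51 ± 0.15 in Z18fl and 0.54 ± 0.15 in Z18trunc. The CLTC copy (L1MDb, chr17:59619923-59620103, in an exon) had 137, 120 and 160 counts in Clover and 221, 170 and 213 in Z18fl, with a log2 fold change of -0.31 ± 0.15 that missed the threshold (adjusted p = 0.097). Together the 10 copies with the highest mean CPM over all 12 libraries gave 15% to 17.3% of member counts in Clover and 6.79% to 7.08% in Z18fl.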

How the data were processed

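A375 cells expressing V5-tagged Clover, Z18fl, Z18trunc or Z18truncZnFmut were profiled by PAR-CLIP with ribosomal RNA depletion and stranded libraries, 3 libraries for each of 4 constructs, grouped by the labels' genotype. Adapters were trimmed with cutadapt 4.6 and elements counted on hg38 with SQuIRE, per the labels and the study's methods. The authors deposited, per element and strand, expected counts (unique reads plus shares of reads that map to several places), unique read counts, the number of aligned fragments per library as a count, and a score for certainty of placement in percent. From these, sense rows of 6 classes were used, and expected counts were rounded. Tests used edgeR 4.0.16 in R 4.3.3 (TMM, filterByExpr with a minimum count of 10 and a minimum total of 15, quasi-likelihood) on the 6 libraries of a comparison, with Benjamini-Hochberg adjustment over all elements or all subfamilies tested and a threshold of 0.05. Of the 5 comparisons, 3 set a ZC3H18 form against Clover, 1 set Z18trunc against Z18fl and 1 set Z18truncZnFmut against Z18trunc. Gene context came from GENCODE 44 and base content from hg38, and 0 elements lay past the end of a chromosome. Alternatives were DESeq2 1.42.0, library sizes from aligned fragments, no filter, either strand, unique reads, 1 fit of all 12 libraries, the replicate number as a block, and leaving out each library.

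Named copies were the 6 largest rises and 3 largest falls against Clover and 3 and 3 between ZC3H18 forms, among called copies with non-overlapping libraries and, in the higher group, a mean of at least 20 counts and a score averaging at least 90, later 70. The 5 copies with the highest mean CPM were named whatever their overlap or score. The members and lists were chosen with earlier results of these data known. Tested on simulated data of the same libraries, with 200 of 12098 elements changed as in Z18fl against Clover, 33.6% of 2-fold and 96.8% of 4-fold changes were recovered, 0 had the wrong direction and 5.97% of calls were false. In the other 4 comparisons of elements, each simulated with its own number of elements, 15.6% to 28.6% of 2-fold and 78.0% to 93.5% of 4-fold changes were recovered, lowest for Z18truncZnFmut against Z18trunc, and 2.61% to 8.65% of calls were false. Pairs of libraries of 1 construct differed by more than counting noise (chi-square per degree of freedom of 1.72 to 3.15), so none was counted as a duplicate.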

Additional observations from a re-analysis of the deposited data

Results flagged for a closer look

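Reads antisense to the elements entered the comparisons only through the alternative that counts either strand. Antisense member reads summed to a mean of 782 CPM in Z18fl (757 to 799) and 828 CPM in Z18trunc (702 to 1004), against 607 CPM in Clover (563 to 667), so every Z18fl and Z18trunc library was above every Clover library. In Z18truncZnFmut the lowest library had 652 CPM, within the range of Clover, and the highest 2724 CPM.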

How the results depend on the processing

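Among 1801 values of single subfamilies and copies under alternatives, 1538 kept their direction and side of the threshold, 77 lost a call, 49 gained one, 15 changed sign with a call in at least 1 of the fits compared, and 122 changed sign with a call in neither. Copies higher in Z18fl (84) numbered 185 with no filter and 178 with all 12 libraries in 1 fit, and copies lower (38) numbered 25 with library sizes from aligned fragments, 15 with no filter and 69 with reads on either strand. For Z18trunc the 87 became 133 with aligned fragments, 200 with no filter, 53 with unique reads and 166 in the joint fit, and the 34 became 20 with DESeq2, 8 with aligned fragments, 4 with no filter and 21 with unique reads. For Z18truncZnFmut the 14 became 37, 35, 5 and 98 under the same settings and 23 unadjusted, and the 10 became 2 with aligned fragments, 0 with no filter, 24 in the joint fit and 21 unadjusted. Between Z18trunc and Z18fl the 8 and 12 became 5 and 5 with DESeq2, 3 and 6 with no filter, 1 and 4 in the joint fit and 46 and 55 unadjusted, and the 12 became 7 with aligned fragments. Between Z18truncZnFmut and Z18trunc the 1 became 2 in the joint fit and 18 unadjusted, and the 0 became 1 with aligned fragments and 39 unadjusted.

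Subfamilies higher in Z18fl (9) and Z18trunc (10) became 17 and 17 with aligned fragments and 3 and 4 in exons, and those lower (0 and 0) became 4 and 2 in exons and 1 in Z18fl with either strand. The 1 of Z18truncZnFmut became 3 with DESeq2, 4 in the joint fit, 7 unadjusted, 4 in introns, 2 in exons, and 0 with aligned fragments, no filter, either strand or unique reads. Between Z18trunc and Z18fl the 0 higher became 1 with DESeq2, 4 unadjusted, 1 in introns and 4 in exons, and between Z18truncZnFmut and Z18trunc 1 in exons. Signs changed with a call in exons for L1MC1 (-0.66 in Z18fl, -0.19 in Z18trunc), L1MC2 (-0.12, -0.13), L1MC3 (-0.13 in Z18trunc), L1MD (-0.57 in Z18fl) and L1MD2 (-0.36, -0.22), with aligned fragments for L1MC4 (0.37, 0.48), L1MC4a and L1MC5 (0.46 each in Z18fl) and L1MDb (0.32, 0.43), and in introns for L1MC4 (0.25 in Z18trunc). The exonic and intronic fits were each scaled on their own elements, unlike the fit of whole subfamilies. The cause was not tested.

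On the log2 scale, the summed level against Clover (0.69 in Z18fl, 0.84 in Z18trunc, 1.18 in Z18truncZnFmut) was 0.30, 0.31 and 0.38 per element count, 0.56 and 0.68 with either strand in Z18fl and Z18trunc, and 0.82 with unique reads in Z18fl. Z18trunc over Z18fl went from 0.14 to 0.014 per element count. Exonic sums became -0.50, -0.49 and -0.65 per element count for the 3 constructs, 0.0014 for Z18trunc over Z18fl and -0.15 for Z18truncZnFmut over Z18trunc, and 0.0068 with unique reads in Z18fl. Intronic sums became 0.74, 0.67 and 0.42, -0.074 for Z18trunc over Z18fl, and 1.29 with unique reads in Z18fl.

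With each library left out in turn, higher and lower copies numbered 63 to 144 and 29 to 49 in Z18fl, 50 to 159 and 16 to 30 in Z18trunc, 6 to 30 and 4 to 8 in Z18truncZnFmut, 3 to 9 and 4 to 12 between Z18trunc and Z18fl, and 1 to 2 and 0 to 2 between Z18truncZnFmut and Z18trunc. Higher subfamilies numbered 8 to 10, 7 to 12, 0 to 7 (7 without Z18truncZnFmut replicate 3), 0 to 4 and 0, and lower subfamilies 0 to 1 between Z18trunc and Z18fl and 0 in the other comparisons. The summed level ranged over 0.64 to 0.78, 0.76 to 0.92, 0.53 to 1.42, 0.072 to 0.20 and -0.31 to 0.59, the lowest of the last being without Z18truncZnFmut replicate 3. Exonic sums ranged over -0.15 to -0.069, -0.023 to 0.069, -0.081 to 0.026, 0.10 to 0.17 and -0.11 to -0.0051, and intronic sums over 1.07 to 1.22, 1.15 to 1.27, 0.83 to 1.25, 0.0075 to 0.11 and -0.36 to 0.063.

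The replicate numbers did not pair the libraries, since deviations of same-numbered libraries correlated at -0.109 to 0.0522. With the replicate block, higher and lower copies numbered 81 and 37 in Z18fl, 83 and 26 in Z18trunc, 13 and 11 in Z18truncZnFmut, 5 and 7 between Z18trunc and Z18fl and 0 and 0 between Z18truncZnFmut and Z18trunc, and higher subfamilies 9, 10, 0, 0 and 0.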
